A study of Mus musculus with 12 samples.

Results

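A set of 10 genes of lipid sensing and lipid traffic was followed in dendritic cells (DCs) grown from mouse bone marrow. The genes were taken by symbol from a count table of 55471 genes, and all 10 had enough counts to be tested. The genes were 5 nuclear receptors (*Pparg*, *Ppard*, *Rxra*, *Nr1h2* and *Nr1h3*) and 5 genes whose products move lipids out of, into or within the cell (*Abca1*, *Abcg1*, *Fabp4*, *Fabp5* and *Cd36*). The DCs came from C57BL/6 mice and were grown with GM-CSF, and all carried a retroviral vector with a human CD8 reporter and a short hairpin RNA. The hairpin was directed at firefly luciferase, a gene mouse cells do not have (shControl), or at *Ppargc1b*, the gene of the co-activator PGC-1β (sh*Ppargc1b*). Cells were sorted on human CD8 and were harvested unstimulated or after 6 h with the antiviral cytokine IFN-β, with 3 libraries in each of the 4 groups. A knockdown leaves part of the transcript in place, every group had been infected with a retrovirus, and the labels do not say whether the 3 libraries of a group came from separate cultures or animals, so p-values measure only the spread between these libraries.

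Peroxisome proliferator-activated receptors (PPARs) and liver X receptors (LXRs) are ligand-activated transcription factors that bind DNA as partners of retinoid X receptors (RXRs). PPARs respond to fatty acids and their derivatives and control genes of fatty acid uptake, storage and oxidation, and PGC-1β is one of the co-activators they can recruit. LXRs respond to oxysterols, which are oxidised forms of cholesterol, and control genes that export cholesterol, and in macrophages and DCs both families are also known for restraining inflammatory genes.

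Library totals ran from 49.9 to 77.7 M counts. Levels are given as CPM (counts scaled to a common library size, after TMM correction), and as CPM per kb of exon where genes are compared with each other. *Ppargc1b* itself was 34.5 ± 1.94 CPM in shControl and 19.4 ± 0.851 CPM in sh*Ppargc1b* cells without stimulation, 56.3% of control (SD, n = 3 each). With IFN-β it was 27.8 ± 3.93 and 18.7 ± 2.83 CPM, 67.2% of control. The groups did not overlap in either comparison, but an exact two-sided permutation test of 3 against 3 libraries cannot go below p = 0.1, which is what both gave. All 9 dendritic-like and all 9 macrophage-like markers were present, with summed levels of 4480 to 5300 and 2470 to 2640 CPM in unstimulated shControl. All 7 adipocyte-like markers, among them *Adipoq* and *Plin1*, were under 10 counts in every library, which bears on *Fabp4*, *Cd36* and *Pparg* as genes also used by fat cells.

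The sequence before the start of 3 of these genes is shown because it holds letters that nuclear receptors are known to bind. Windows of 250 bases before a RefSeq start (build GRCm38.p6) were found for 7 of the 10 genes and were searched on both strands. The search was for AGGTCA, the half-site of these receptors, for the direct repeats DR1 (NGGTNANNGGTNA, typical of PPAR with RXR) and DR4 (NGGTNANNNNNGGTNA, typical of LXR with RXR), and for GAAANNGAAA, typical of interferon-regulated genes. Capitals mark a match to any of these, and a direct repeat may overlap a half-site.
*Abca1*, chr4:53159896-53160145, minus strand: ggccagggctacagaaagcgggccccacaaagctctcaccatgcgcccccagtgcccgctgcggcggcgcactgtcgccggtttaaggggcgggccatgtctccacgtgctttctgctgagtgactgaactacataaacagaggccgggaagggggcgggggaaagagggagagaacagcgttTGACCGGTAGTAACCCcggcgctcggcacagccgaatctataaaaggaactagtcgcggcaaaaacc
*Cd36*, chr5:17835897-17836146, minus strand: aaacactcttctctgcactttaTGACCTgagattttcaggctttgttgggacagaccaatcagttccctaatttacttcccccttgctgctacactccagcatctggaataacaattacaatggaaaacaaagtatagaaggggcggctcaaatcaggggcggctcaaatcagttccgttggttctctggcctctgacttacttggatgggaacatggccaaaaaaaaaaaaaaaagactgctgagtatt
*Rxra*, second start, chr2:27709042-27709291, plus strand: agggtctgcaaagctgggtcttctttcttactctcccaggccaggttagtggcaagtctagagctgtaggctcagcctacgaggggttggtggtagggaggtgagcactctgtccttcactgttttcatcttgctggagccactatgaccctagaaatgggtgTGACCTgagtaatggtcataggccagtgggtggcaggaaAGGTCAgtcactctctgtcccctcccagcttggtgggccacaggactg
The *Abca1* window held a DR4 on the opposite strand, 67 to 52 bases before the start, and DR4 was present in 0.621% of 32851 such windows. The *Cd36* window held a half-site 228 to 223 bases before the start, and the *Rxra* window held a pair, at 87 to 82 and 48 to 43 bases. Half-sites were in 14.0% of all windows, and the windows of 2 of the 3 *Pparg* starts held one as well. No window of the 7 genes held DR1 (0.935% of all windows) or GAAANNGAAA (2.98%), which says only that those letters were not in these windows.

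In unstimulated shControl cells *Cd36*, *Abca1*, *Abcg1* and *Fabp5* stood above all 5 receptors, while *Fabp4* lay below *Nr1h2* and *Rxra*. Per kb of exon, *Cd36* had a level of 335 CPM, *Abca1* 86.8, *Abcg1* 81.1, *Fabp5* 64.8 and *Fabp4* 11.3. The receptors had 14.8 CPM per kb for *Nr1h2*, 12.1 for *Rxra*, 7.72 for *Ppard*, 5.32 for *Pparg* and 1.63 for *Nr1h3*. Among 18202 tested genes with a length, *Cd36* lay at percentile 99.6 and *Nr1h3* at percentile 41.4. The order of *Abca1* and *Abcg1* rested on the length used, because the longest transcript in place of all exons gave 87.6 CPM per kb for *Abca1* and 101 for *Abcg1*. Their ratio within a library, on the scale of all exons, was also within its spread of equality, at 0.940 ± 0.0914 for *Abcg1* to *Abca1*.

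Among 49 nuclear receptor genes ranked per kb in unstimulated shControl, *Nr1h2* was the 3rd, *Rxra* the 5th, *Ppard* the 7th, *Pparg* the 12th and *Nr1h3* the 18th. The glucocorticoid receptor gene *Nr3c1* led with 22.1 CPM per kb and the retinoic acid receptor gene *Rara* followed with 19.1. The ranges of *Nr1h2* and its neighbour *Nr4a3* overlapped (14.1 to 15.5 and 13.4 to 14.8 CPM per kb), as did those of *Ppard* with *Nr2c2* and *Rarg*, and those of *Pparg* with *Rora* and *Rxrb*, so these places are not distinct. *Rxra* and *Nr1h3* overlapped with neither neighbour. The longest transcript in place of all exons gave 24.9 CPM per kb for *Nr1h2* and 15.6 for *Ppard*. Of the third PPAR, *Ppara*, no library had more than 3 counts, and of *Rxrg* no library had more than 5, so neither was tested. *Rxrb*, a second RXR, had 4.81 CPM per kb.

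*Pparg* encodes PPARγ, best known from adipocytes and alternatively activated macrophages (chromosome 6, 115360951 to 115490399, plus strand, GRCm38, as for the positions below). Its level was 16.1, 14.8 and 16.2 CPM in the 3 unstimulated shControl libraries, against 11.2, 10.0 and 11.6 CPM in unstimulated sh*Ppargc1b* cells. With IFN-β it was 6.55, 6.54 and 5.95 CPM in shControl and 6.47, 4.96 and 5.70 CPM in sh*Ppargc1b* cells. The unstimulated groups were thus separate from each other and both were above every IFN-β-treated library, whereas the 2 IFN-β-treated groups overlapped. Knockdown without IFN-β lowered *Pparg*, with a difference of -0.52 ± 0.09 on the log2 scale (SE, adjusted p = 0.00064). IFN-β lowered it as well, with -1.31 ± 0.10 for shControl and -0.94 ± 0.10 for sh*Ppargc1b* cells (adjusted p = 1.47e-08 and 1.11e-06). With IFN-β the knockdown difference was -0.15 ± 0.10 (adjusted p = 0.315), and 2 SE around it spanned folds of 0.784 to 1.03. The knockdown effects with and without IFN-β were not shown to differ (interaction 0.37 ± 0.14, adjusted p = 0.31).

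*Ppard*, the gene of PPARδ, a receptor active in most tissues (chromosome 17, 28232700 to 28301474, plus strand), passed the threshold in none of the 4 comparisons with TMM scaling. Its mean level was 58.0 ± 1.18 CPM in unstimulated shControl and 60.7 ± 6.09 CPM after knockdown, and with IFN-β it was 54.0 ± 3.12 CPM in shControl and 57.4 ± 4.58 CPM after knockdown. Groups overlapped in all 4 comparisons. The knockdown difference without IFN-β was 0.07 ± 0.07 (adjusted p = 0.567), with folds of 0.95 to 1.15 within 2 SE. For IFN-β this rests on the scaling, because library totals alone gave -0.34 in shControl and -0.28 in sh*Ppargc1b* cells, both past the threshold (adjusted p = 0.00065 and 0.00312). Within each library the ratio of *Pparg* to *Ppard*, per kb and so free of any scaling of library sizes, was 0.691 ± 0.0429 in unstimulated shControl and 0.461 ± 0.0286 in unstimulated sh*Ppargc1b* cells. It was 0.30 ± 0.0322 and 0.256 ± 0.0542 with IFN-β.

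*Rxra* encodes RXRα, the partner that PPARs and LXRs share (chromosome 2, 27676440 to 27762957, plus strand). Without IFN-β it had 64.3, 64.3 and 70.1 CPM in shControl and 40.7, 46.2 and 43.5 CPM in sh*Ppargc1b* libraries. IFN-β-treated libraries had 37.7, 36.4 and 40.0 CPM in shControl and 30.5, 32.6 and 29.1 CPM in sh*Ppargc1b* libraries. The groups being compared did not overlap in any of the 4 comparisons, and *Rxra* was the only one of the 5 receptors past the threshold in all 4. The knockdown difference was -0.61 ± 0.06 without and -0.31 ± 0.06 with IFN-β (adjusted p = 2.73e-06 and 0.00147). The IFN-β difference was -0.80 ± 0.06 for shControl and -0.50 ± 0.06 for sh*Ppargc1b* cells (adjusted p = 1.81e-08 and 6.08e-06). The interaction was 0.30 and did not pass the threshold (adjusted p = 0.135). *Rxrb* also fell with knockdown without IFN-β, by 0.24 on the log2 scale (adjusted p = 0.0425), and its difference with IFN-β was -0.15 (adjusted p = 0.197).

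**Figure D1:**
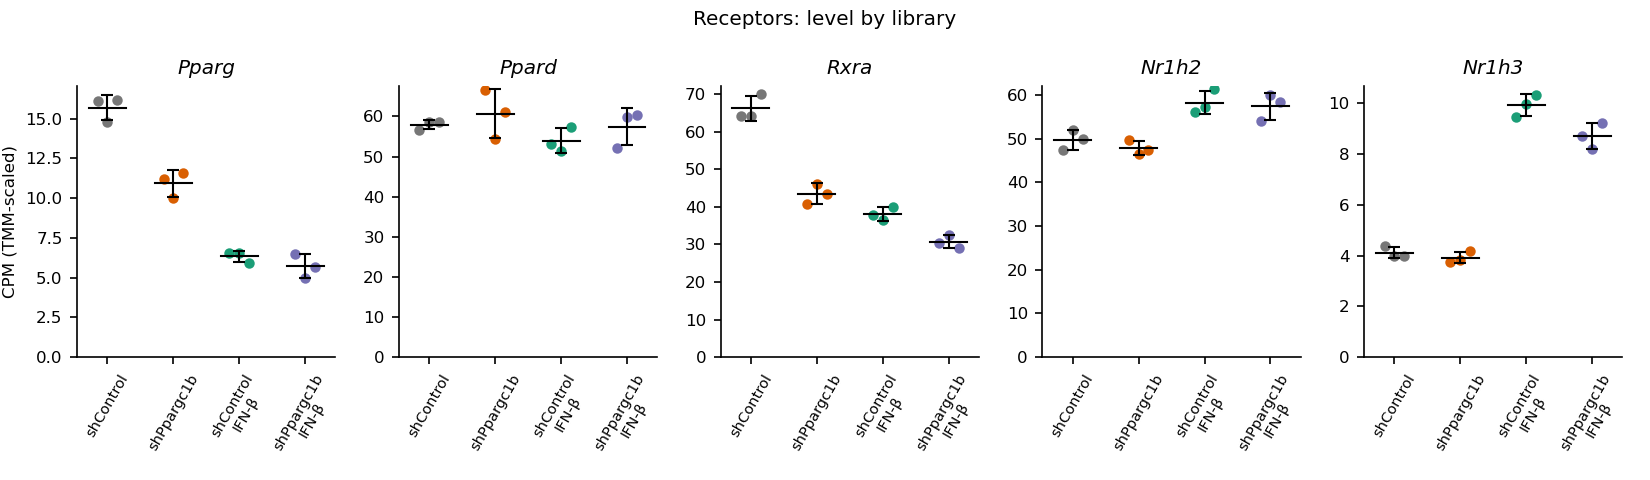
Level of the 5 receptor genes in CPM (TMM-scaled, linear axis from 0) in each of the 12 libraries. Points are libraries, horizontal bars are means and error bars are SD (n = 3). *Nr1h3* rises from about 4 CPM unstimulated to between 8.18 and 10.3 CPM with IFN-β, while *Pparg* falls below 7 CPM and *Ppard* stays between 51.3 and 66.6 CPM.

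The LXR genes differed from each other in level and in response. *Nr1h2* encodes LXRβ, the form found in most tissues (chromosome 7, 44549616 to 44553951, minus strand), and had a mean level of 49.7 ± 2.34 CPM in shControl and 47.8 ± 1.53 CPM after knockdown without IFN-β, and of 58.3 ± 2.66 and 57.4 ± 3.08 CPM with it. Knockdown differences were -0.06 and -0.02 with overlapping groups (adjusted p = 0.504 and 0.811). The IFN-β rises of 0.23 ± 0.05 in shControl and 0.26 ± 0.05 in sh*Ppargc1b* cells passed the threshold (adjusted p = 0.00189 and 0.000745), but with library totals alone they were -0.01 and 0.06 and neither passed. Under that scaling the median over every gene tested went from -0.03 to -0.27 for IFN-β in shControl and from -0.02 to -0.22 for IFN-β in sh*Ppargc1b* cells, so the *Nr1h2* rise is one relative to the other genes.

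*Nr1h3* encodes LXRα, the form known from liver, fat and macrophages (chromosome 2, 91184061 to 91202834, minus strand). It had 4.36, 4.0 and 3.97 CPM in unstimulated shControl, against 3.76, 3.83 and 4.16 CPM after knockdown, from at least 205 counts in a library. With IFN-β it had 9.46, 9.98 and 10.3 CPM in shControl and 8.70, 8.18 and 9.23 CPM in sh*Ppargc1b* cells. Every IFN-β-treated library was thus above every unstimulated one. The IFN-β rise was 1.27 ± 0.09 on the log2 scale for shControl and 1.15 ± 0.09 for sh*Ppargc1b* cells (adjusted p = 5.86e-09 and 2.69e-08), and with library totals alone it was still 1.03 and 0.95. Knockdown differences were -0.07 ± 0.09 without IFN-β, where the groups overlapped (adjusted p = 0.658), and -0.19 ± 0.08 with IFN-β, where they did not overlap but the test did not pass (adjusted p = 0.114). The ratio of *Nr1h3* to *Nr1h2* within a library, per kb, was 0.111 ± 0.0109 and 0.109 ± 0.00797 in unstimulated shControl and sh*Ppargc1b* cells, and 0.227 ± 0.00464 and 0.203 ± 0.0179 with IFN-β. *Nr1h2* therefore remained the more abundant LXR transcript per kb in every group. A same-strand gene, *Gm13783*, shares 34 bases with the exons of *Nr1h3*, 1.352% of them.

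The efflux genes moved apart. *Abca1* encodes the transporter that loads cholesterol and phospholipid onto lipid-poor apolipoprotein A-I, and it is a classical LXR target (chromosome 4, 53030787 to 53159895, minus strand). It had 955, 932 and 810 CPM in unstimulated shControl, against 1200, 1080 and 967 CPM after knockdown, so the highest control library lay just under the lowest knockdown library. Knockdown raised it by 0.27 ± 0.07 (adjusted p = 0.0116), but without unstimulated sh*Ppargc1b* replicate 1 or without unstimulated shControl replicate 3 the call was lost (adjusted p = 0.0602 and 0.0617). With IFN-β it had 817, 824 and 807 CPM in shControl and 964, 953 and 894 CPM in sh*Ppargc1b* cells, a difference of 0.20 ± 0.07 that fell just outside the threshold (adjusted p = 0.0525). Over the 18 alternative settings that p ran from 5.2e-05 to 0.181, and 11 of them put it past the threshold. IFN-β gave -0.14 ± 0.07 in shControl (adjusted p = 0.118), where groups overlapped, and -0.21 ± 0.07 in sh*Ppargc1b* cells (adjusted p = 0.026). The latter call was lost without unstimulated sh*Ppargc1b* replicate 1 (adjusted p = 0.164), unstimulated sh*Ppargc1b* replicate 2 (0.0653) or IFN-β-treated sh*Ppargc1b* replicate 3 (0.113). IFN-β in shControl also passed without unstimulated shControl replicate 3 (adjusted p = 0.0156) and without unstimulated sh*Ppargc1b* replicate 1 (0.0466) or 3 (0.0414), and it was -0.38 with library totals alone (adjusted p = 0.000217). With the runs of 4 library codes, each of which holds 1 library of every group, as a block, *Abca1* passed for IFN-β in shControl (adjusted p = 0.0214) and for knockdown with IFN-β (0.00395).

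*Abcg1* encodes the transporter that passes cholesterol to mature high-density lipoprotein particles and is also a classical LXR target (chromosome 17, 31057675 to 31117988, plus strand). Without IFN-β it had 592, 588 and 596 CPM in shControl and 438, 411 and 415 CPM in sh*Ppargc1b* libraries. After IFN-β the values were 803, 733 and 795 CPM in shControl and 687, 564 and 647 CPM in sh*Ppargc1b* libraries. The groups compared did not overlap, and *Abcg1* was lower with knockdown and higher with IFN-β. The knockdown difference was -0.49 ± 0.06 without and -0.30 ± 0.06 with IFN-β (adjusted p = 2.47e-05 and 0.00182). IFN-β raised it by 0.39 ± 0.06 for shControl and 0.58 ± 0.06 for sh*Ppargc1b* cells (adjusted p = 5.18e-05 and 1.07e-06), or by 0.15 and 0.38 with library totals alone. The within-library ratio of *Abcg1* to *Abca1*, per kb, was 0.940 ± 0.0914 in shControl and 0.556 ± 0.0478 after knockdown without IFN-β, and 1.35 ± 0.078 and 0.959 ± 0.103 with it. Both transporters are LXR targets, yet the knockdown difference was positive for *Abca1* and negative for *Abcg1* with and without IFN-β.

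**Figure D2:**
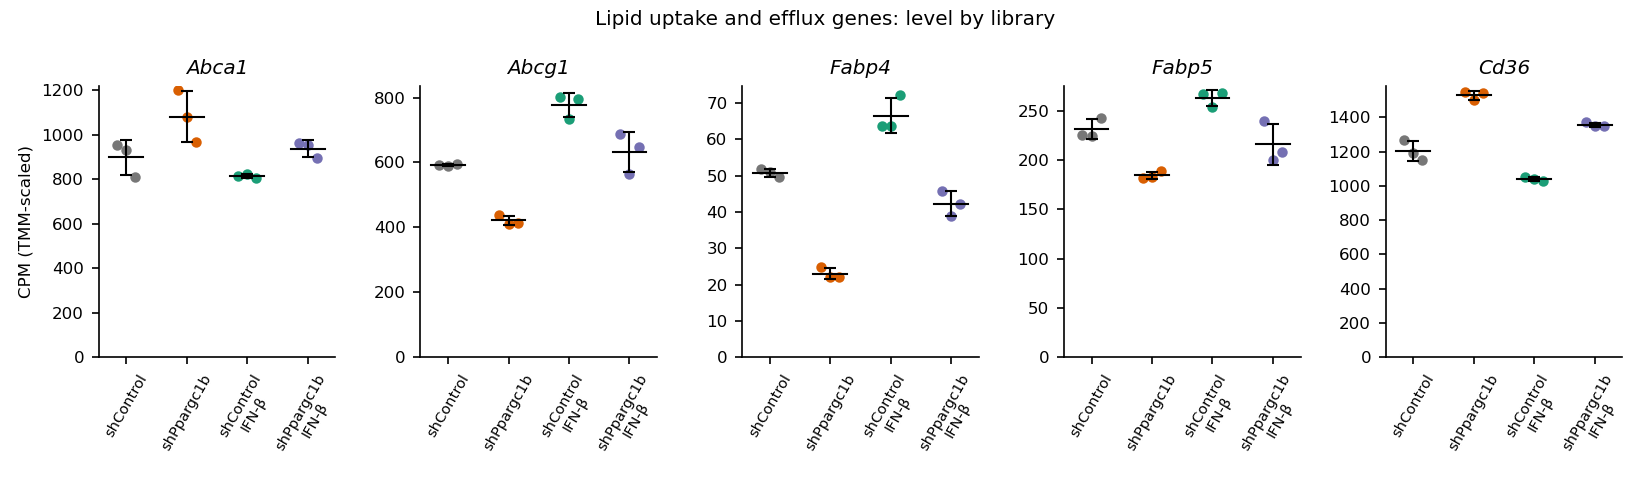
Level of the 5 lipid efflux, binding and uptake genes in CPM (TMM-scaled, linear axis from 0) in each of the 12 libraries, drawn as for the receptors (points are libraries, bars are mean and SD, n = 3). *Fabp4* is at 22.1 to 24.8 CPM in unstimulated sh*Ppargc1b* libraries and at 49.6 CPM or more in every shControl library, while *Cd36* is higher in each sh*Ppargc1b* group than in its control.

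*Fabp4* and *Fabp5* encode cytosolic fatty acid-binding proteins, which carry fatty acids between membranes, droplets and the nucleus, and *Fabp4* is a classical PPARγ target. *Fabp4* (chromosome 3, 10204088 to 10208576, minus strand) had 51.8, 51.1 and 49.6 CPM in unstimulated shControl, against 24.8, 22.1 and 22.1 CPM after knockdown. With IFN-β it had 63.8, 63.7 and 72.2 CPM in shControl and 45.8, 38.9 and 42.2 CPM in sh*Ppargc1b* cells. All 4 groups were separate from each other, and every sh*Ppargc1b* library was below every shControl library. The knockdown difference was -1.14 ± 0.07 without and -0.65 ± 0.07 with IFN-β (adjusted p = 2.9e-08 and 5.21e-06), which left 23.0 ± 1.58 and 42.3 ± 3.44 CPM. Among the 10 genes this was the largest change in size with knockdown in each treatment. *Fabp4* was also the only one of the 10 with an interaction of knockdown and IFN-β past the threshold, at 0.49 ± 0.09 (adjusted p = 0.0254, against 0.73% of all tested genes that passed). Leaving out any 1 of 8 of the 12 libraries put that adjusted p above the threshold, up to 0.102. The interactions of *Pparg*, *Rxra* and *Abcg1* were also positive within 2 SE (0.10 to 0.64, 0.13 to 0.47 and 0.02 to 0.36), but none of these passed. IFN-β raised *Fabp4* by 0.88 ± 0.07 after knockdown and by 0.39 ± 0.07 for shControl (adjusted p = 4.1e-08 and 0.000138), but with library totals alone the value for shControl was 0.15 and did not pass (adjusted p = 0.0658).

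*Fabp5* lies in the same chromosome 3 cluster (10012548 to 10016607, plus strand). Without IFN-β it had 226, 225 and 243 CPM in shControl and 182, 183 and 189 CPM in sh*Ppargc1b* libraries. After IFN-β the values were 267, 254 and 268 CPM in shControl and 240, 200 and 208 CPM in sh*Ppargc1b* libraries. It was lower with knockdown in both treatments, at -0.33 ± 0.06 without and -0.28 ± 0.06 with IFN-β (adjusted p = 0.000651 and 0.00197). The IFN-β rise of 0.19 ± 0.06 in shControl (adjusted p = 0.0142) was lost without unstimulated shControl replicate 1 or 2 (adjusted p = 0.0737 and 0.0777) and was -0.05 with library totals alone. In sh*Ppargc1b* cells it was 0.23 ± 0.06 (adjusted p = 0.00464), and 0.03 with library totals alone (adjusted p = 0.756). *Fabp5* has near-identical processed copies, *Gm6166* and *Gm14328*, which match it at 98.3% of 409 and 97.3% of 408 bases and held 637 and 91 counts over all libraries, so its level is uncertain by reads these copies could share. The ratio of *Fabp4* to *Fabp5* within a library, per kb, was 0.175 ± 0.0111 and 0.0992 ± 0.00804 in unstimulated shControl and sh*Ppargc1b* cells and 0.201 ± 0.0122 and 0.156 ± 0.00494 with IFN-β.

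*Cd36* encodes the scavenger receptor that takes up long-chain fatty acids and oxidised lipoproteins, and it is another known PPARγ target (chromosome 5, 17781690 to 17888801, minus strand). Without IFN-β it had 1270, 1190 and 1150 CPM in shControl and 1550, 1500 and 1540 CPM in sh*Ppargc1b* libraries. IFN-β-treated libraries had 1050, 1040 and 1030 CPM in shControl and 1370, 1350 and 1350 CPM in sh*Ppargc1b* libraries. Every sh*Ppargc1b* library was above every shControl library, and within each hairpin the IFN-β-treated libraries were below the unstimulated ones. Knockdown raised it by 0.35 ± 0.04 without and by 0.38 ± 0.04 with IFN-β (adjusted p = 1.3e-05 and 5.92e-06). IFN-β gave -0.21 ± 0.04 for shControl and -0.17 ± 0.04 for sh*Ppargc1b* cells (adjusted p = 0.000394 and 0.00254). *Cd36* and *Fabp4*, both PPARγ targets, thus had knockdown differences of opposite sign with and without IFN-β. Per kb and within a library, the ratio of *Cd36* to *Pparg* averaged 63.0 in unstimulated shControl and 115 after knockdown, and that of *Fabp4* to *Pparg* averaged 2.13 and 1.38.

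**Figure D3:**
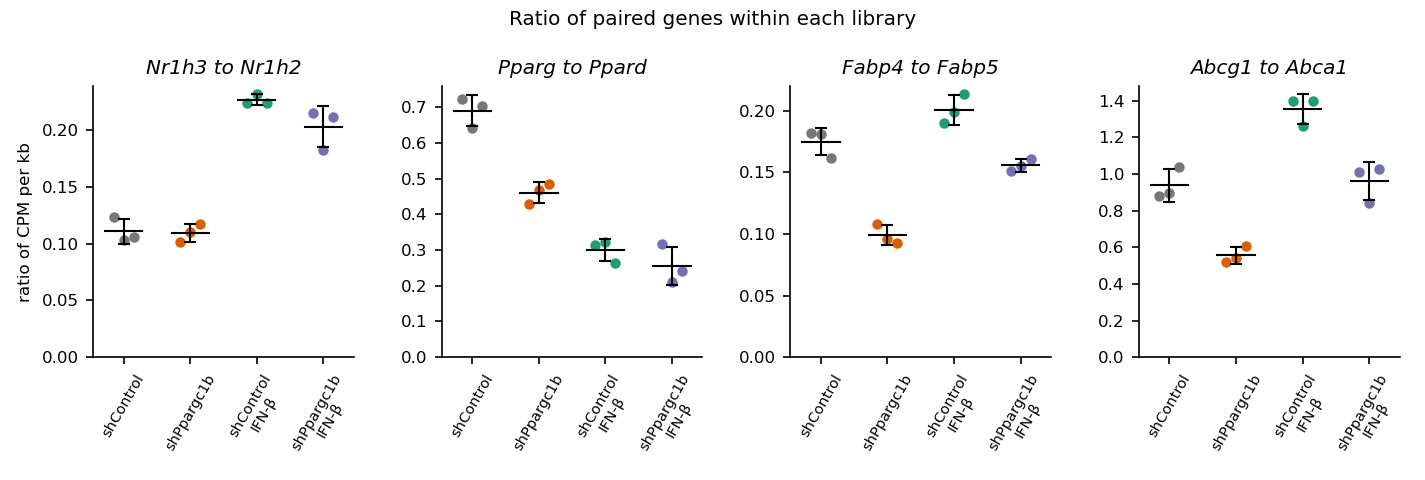
Ratio of CPM per kb of exon between genes of a pair, computed within each of the 12 libraries (points are libraries, bars are mean and SD, n = 3). The ratio of *Abcg1* to *Abca1* is lower with knockdown in each treatment, and that of *Nr1h3* to *Nr1h2* lies between 0.101 and 0.123 in the unstimulated libraries and is higher with IFN-β.

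Counted over the 10 genes, knockdown without IFN-β moved 7 past the threshold, *Cd36* and *Abca1* up and *Pparg*, *Rxra*, *Abcg1*, *Fabp4* and *Fabp5* down. Of all 18228 tested genes, 23.6% passed (12.4% higher and 11.1% lower). With IFN-β, 5 of the 10 passed, *Cd36* up and *Rxra*, *Abcg1*, *Fabp4* and *Fabp5* down, against 24.2% of all genes (11.5% higher and 12.7% lower). IFN-β in shControl moved 8, *Nr1h2*, *Nr1h3*, *Abcg1*, *Fabp4* and *Fabp5* up and *Pparg*, *Rxra* and *Cd36* down, where 48.2% of all genes passed (23.7% higher and 24.6% lower). IFN-β in sh*Ppargc1b* cells moved 9, the same 8 and *Abca1* down, where 42.6% passed (21.4% higher and 21.2% lower). These IFN-β counts rest on the scaling. With library totals alone, IFN-β in shControl raised 1 and lowered 3 of the 5 receptors, and raised 1 and lowered 2 of the 5 lipid genes. In sh*Ppargc1b* cells it raised 1 and lowered 3 of the receptors, and raised 2 and lowered 2 of the lipid genes. Of the 5 receptors, none rose with knockdown in either treatment, which for so few genes is close to the 12.4% and 11.5% of all genes that rose. Of the genes that IFN-β moved past the threshold in shControl, 49.0% were higher, or 23.9% with library totals alone, and after knockdown it was 50.2%, or 23.7%. For the interaction it was 8.27%, or 20.2% with library totals alone. The comparisons share libraries (both knockdown and IFN-β differences use the same unstimulated groups), so their values stand side by side and are not independent.

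**Figure D4:**
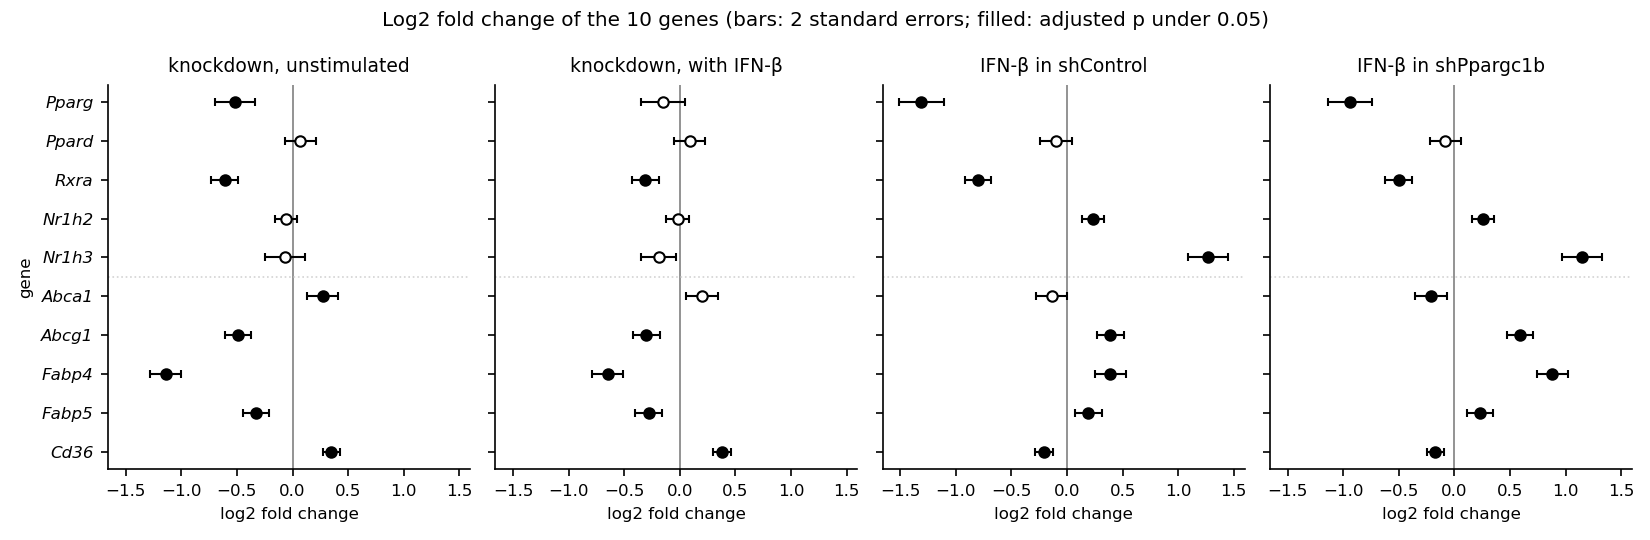
Log2 fold change of the 10 genes in 4 comparisons, receptors above the dotted line and lipid genes below it. Points are edgeR estimates, bars are 2 SE, and filled points passed an adjusted p of 0.05. *Fabp4* has the lowest value in both knockdown panels, and *Pparg* and *Nr1h3* lie farthest to the left and to the right with IFN-β in shControl.

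The rest of the pathway was read from hand-written lists, whose counts stand beside those over all tested genes, of which 12.4% rose and 11.1% fell with knockdown without IFN-β, 11.5% and 12.7% with IFN-β, and 23.7% and 24.6% with IFN-β in shControl. Of 28 tested nuclear receptor genes, these receptors included, 4 rose and 10 fell with knockdown without IFN-β (median log2 fold change -0.10, against 0.00 over all genes). *Rxra* and the retinoic acid receptor gene *Rarg* had the largest falls, -0.61 and -0.57. With IFN-β, 5 rose and 7 fell. IFN-β in shControl raised 7 and lowered 7 (5 and 13 with library totals alone), and *Nr1h3* had the largest rise of the family and *Thrb* and *Pparg* the largest falls, at -1.39 and -1.31. Of 16 co-activators and co-repressors, none rose and 5 fell with knockdown without IFN-β, *Ppargc1b* itself (-0.83) and the co-activator *Ncoa1* (-0.40) the most. The co-repressor *Ncor1* gave -0.05 there (adjusted p = 0.32), and *Nrip1* gave 0.19 (adjusted p = 0.0505).

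Of 11 other LXR targets tested, none rose and 4 fell with knockdown without IFN-β (median -0.17), where 12.4% of all genes rose and 11.1% fell. With IFN-β again none rose and 4 fell (median -0.14), where 11.5% of all genes rose and 12.7% fell. *Pltp*, the phospholipid transfer protein, fell from 160.0 ± 8.29 to 108.0 ± 14.0 CPM (-0.57 ± 0.08, adjusted p = 6.85e-05), and *Smpdl3a*, a phosphodiesterase, fell from 190.0 ± 13.5 to 131.0 ± 12.7 CPM (-0.53 ± 0.06, adjusted p = 2.33e-05). *Apoe*, which carries exported cholesterol, was at 126.0 ± 13.5 and 92.8 ± 22.3 CPM and did not pass (-0.44 ± 0.17, adjusted p = 0.0665). *Srebf1*, *Mylip* and *Lpcat3* gave -0.06, -0.17 and -0.09, none past the threshold. IFN-β in shControl raised 2 of the 11, the efferocytosis receptor *Mertk* (0.71) and *Mylip* (0.46), and lowered 3, among them the fatty acid synthesis genes *Scd2* (-1.04) and *Fasn* (-0.98), or 2 and 7 with library totals alone.

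Of 14 other PPAR targets tested, 3 rose and 5 fell with knockdown without IFN-β (median 0.00). *Cpt1a*, which brings long-chain fatty acids to mitochondrial oxidation, fell from 132.0 ± 1.28 to 74.3 ± 1.59 CPM (-0.83 ± 0.05, adjusted p = 2.9e-08), *Acaa2* of β-oxidation fell by 0.74 on the log2 scale (adjusted p = 2.88e-06), and the lipid droplet coat gene *Plin2* changed by -0.36 (adjusted p = 0.000329). The efflux pump gene *Abcg2* rose by 0.78 and *Acsl1*, which activates fatty acids, by 0.51. *Lpl*, the lipoprotein lipase gene, rose by 0.15 from a level of 4590 CPM (adjusted p = 0.0172). *Angptl4* was at 2.73 ± 0.362 and 3.53 ± 0.513 CPM (0.37, adjusted p = 0.141), and *Pdk4* had at most 6 counts in a library and was not tested. In IFN-β-treated cells *Angptl4* was at 0.792 ± 0.131 CPM in shControl and 1.28 ± 0.282 CPM after knockdown, and this rise passed (0.67, adjusted p = 0.0281). With IFN-β, 3 rose and 4 fell with knockdown. IFN-β in shControl raised 5 and lowered 6 (4 and 7 with library totals alone), with *Acsl1* at 1.80 and *Acadl* at 1.01 the largest rises and *Angptl4* the largest fall, at -1.77.

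Of 12 genes of oxysterol and cholesterol handling, 2 rose and 4 fell with knockdown without IFN-β. *Ch25h*, an enzyme of oxysterol synthesis, had 2.10 ± 0.234 CPM in unstimulated shControl and 4.94 ± 1.25 CPM after knockdown, and 22.0 ± 2.87 and 28.3 ± 5.78 CPM with IFN-β. Its rise was 1.25 ± 0.20 for knockdown without IFN-β and 3.39 ± 0.19 for IFN-β in shControl (adjusted p = 0.000299 and 6.52e-10), and the knockdown difference with IFN-β was 0.36 and did not pass (adjusted p = 0.109). *Cyp27a1*, another sterol hydroxylase, went the other way with knockdown, at -0.50 and -0.61 without and with IFN-β, and rose by 0.93 with IFN-β in shControl. *Npc2*, which binds cholesterol in lysosomes, rose with knockdown without IFN-β (0.45, adjusted p = 3.12e-06) and was the only gene of these lists other than *Fabp4* with an interaction past the threshold (-0.33, adjusted p = 0.0238).

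Of 14 tested lipoprotein and scavenger receptors, 5 rose and 2 fell with knockdown without IFN-β (median 0.10). The scavenger receptor genes *Colec12* and *Olr1* rose by 0.96 and 0.74, from 34.4 ± 4.08 to 67.0 ± 7.79 CPM and from 175.0 ± 12.7 to 292.0 ± 26.7 CPM, while *Marco* fell from 9.03 ± 2.79 to 4.20 ± 1.55 CPM (-1.11, adjusted p = 0.0123). *Msr1* and *Scarb1* gave 0.10 and -0.15, neither past the threshold. Of 4 other fatty acid-binding protein genes tested, none passed with knockdown without IFN-β. In IFN-β-treated cells *Fabp1* was higher with knockdown (1.18, adjusted p = 0.0261), with at most 24 counts in any library. IFN-β in shControl raised *Fabp3* from 0.368 ± 0.135 to 5.93 ± 0.961 CPM (3.99 ± 0.21, adjusted p = 3.15e-10). *Fabp3* encodes the heart-type binding protein. Of 11 other transporters of the ABCA and ABCG families, 2 rose and 4 fell with knockdown without IFN-β, and IFN-β in shControl raised none and lowered 8 (median -0.54), where 23.7% of all genes rose and 24.6% fell. With library totals alone, which put the median of all genes at -0.27, it raised none and lowered 10 (median -0.78). Under TMM the largest falls were those of *Abca6* and *Abcg4*, at levels of at most 2.54 CPM in any group.

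**Figure D5:**
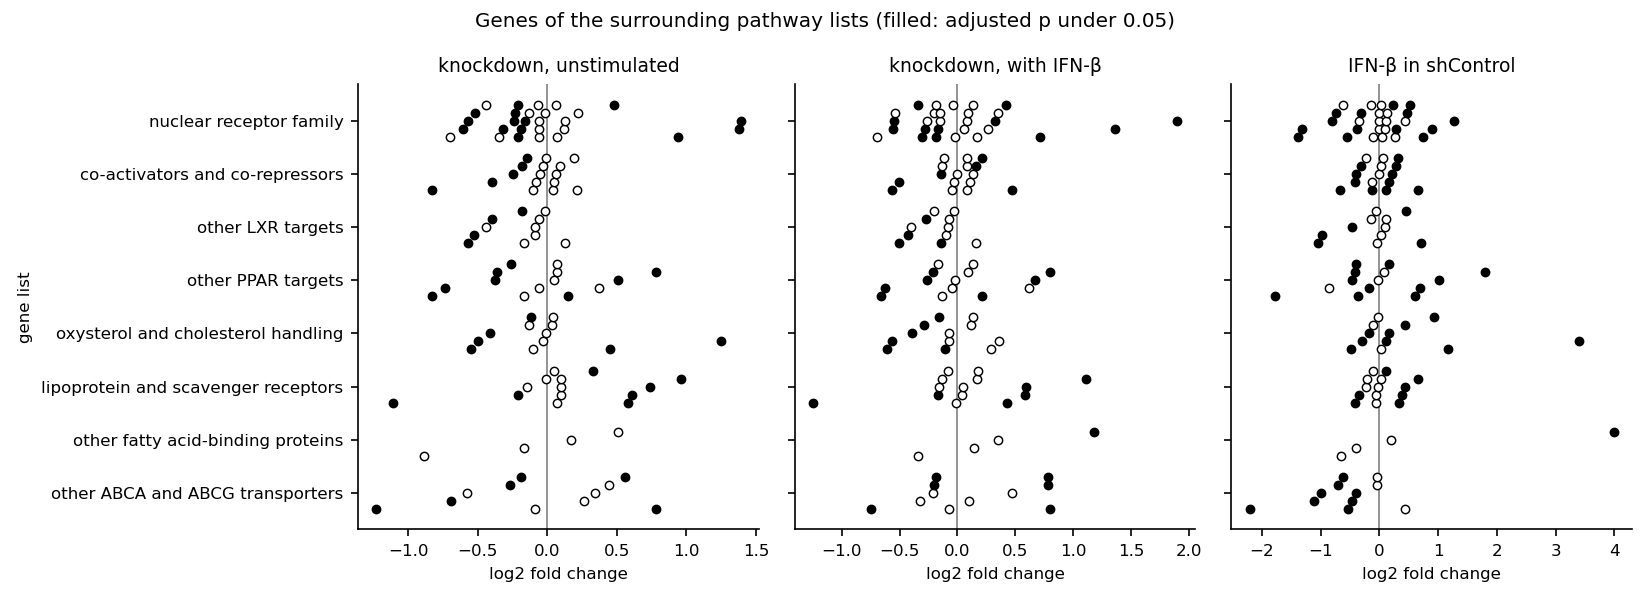
Log2 fold change of each tested gene in 8 pathway lists (rows) for knockdown without IFN-β, knockdown with IFN-β and IFN-β in shControl (each panel has its own axis). Filled points passed an adjusted p of 0.05, and vertical offsets only separate points. None of the 11 other LXR targets passed on the right with knockdown in either treatment, and 8 of 11 other ABCA and ABCG genes passed on the left with IFN-β in shControl.

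Markers of other cells moved with the knockdown, and in bulk samples fewer cells of a type and less RNA per cell cannot be told apart. The summed platelet or megakaryocyte-like markers were at 93.1 to 101 CPM in unstimulated shControl and 180 to 203 in unstimulated sh*Ppargc1b* cells, mostly *Pf4* and *Ppbp*, with *Gp9* under 10 counts in every library, and platelets also carry CD36. *Pf4* (0.82), *Ppbp* (1.26) and *Gp6* (0.75) passed the threshold. *Itga2b* and *Gp1ba* gave -0.06 and -0.09 and did not pass (adjusted p = 0.894 and 0.937). The neutrophil-like sum was 39.4 to 87.1 and 85.7 to 148 CPM, and of its 7 genes *S100a8* alone passed (0.83, adjusted p = 0.0322). The mast cell or basophil-like sum was 8.71 to 16.6 and 22.1 to 25.7 CPM, carried by *Kit* (7.54 and 14.3 CPM) and *Gata2* (1.87 and 5.84 CPM), while *Cpa3*, *Fcer1a*, *Ms4a2* and *Mcpt8* did not pass (0.12, 0.02, 0.36 and 0.15). The macrophage-like sum, of cells that use *Pparg*, *Abcg1* and *Fabp4* as well, was 2470 to 2640 CPM in shControl and 2300 to 2380 CPM after knockdown without IFN-β, and 3020 to 3270 and 2630 to 2830 CPM with it. Without IFN-β most of that fall was *Mrc1*, at 307 ± 34.7 and 107 ± 12.3 CPM (-1.51, adjusted p = 1.99e-07), while *Cd14* rose (0.44, adjusted p = 7e-05) and *Csf1r*, *Adgre1* and *C1qa* gave -0.02, 0.09 and 0.00, none past the threshold. The dendritic-like sum was 4480 to 5300 CPM in shControl and 5170 to 5980 CPM after knockdown without IFN-β, ranges that overlapped. *Ccr7* (1.32), *Zbtb46* (0.61), *Flt3* (0.57) and *Itgax* (0.26) passed the threshold. *Cd74*, *H2-Aa*, *H2-Ab1* and *Dpp4* gave 0.17, 0.16, 0.13 and 0.28 and *Ciita* gave -0.21, none past it. *Cd74*, the most abundant of the list, was at 2090 ± 194 and 2350 ± 225 CPM. The endothelial-like sum rose from 18.5 to 24.0 CPM in unstimulated shControl to 181 to 223 CPM with IFN-β, nearly all of it *Kdr*, with *Cldn5* at 0 in every library. The part of these cells in the results above was not tested.

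Genes whose pattern over the 12 libraries was most like that of a member were named by Pearson's r of log2 CPM, as a description only, since the libraries share their 4 groups. For *Nr1h3* they were *Irf1*, *Gbp2* and *Slfn9*, each with r = 0.997. For *Pparg* they were *Eif4b* (0.990), *Nipal3* (0.988) and *Asxl1* (0.987), and for *Cd36* they were *Chst11* (0.986), *Abcg2* (0.985) and *Gga2* (0.983). For *Abca1*, whose libraries of 1 group spread more, they were *Fuca1* (0.944), *Gm6209* (0.923) and *Trf* (0.918).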

How the data were processed

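RNA-seq was measured in 12 libraries, grouped from the labels. These gave no replicate numbers, so the libraries of a group were numbered by record order only and were not paired. Per the study's methods, the authors depleted ribosomal RNA, trimmed the reads and mapped them with STAR to mm10. The deposited values are raw counts, whole numbers per GENCODE gene with no normalization. Whether counting used strand is not given in the sources used here, and reads that map to near-identical copies can be missed. The 10 genes and all gene lists were chosen with earlier results of these data known.

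Counts were tested with edgeR 4.0.16 in R 4.3.3. Genes were kept by filterByExpr (minimum count 10, minimum total 15), which left 18228 genes, and library sizes were scaled by TMM. A quasi-likelihood model took all 12 libraries together with a mean for each group. Benjamini-Hochberg adjustment ran over all 18228 genes, and the threshold on the adjusted p was 0.05. The method was tested on simulated counts. Every adjusted p of the text comes from this test unless another tool is named. Contrasts were knockdown without and with IFN-β, IFN-β in each hairpin, and their interaction. Levels are TMM-scaled CPM with SD, and positions and exon lengths are from GENCODE M21. Beside the 10 genes, those named are pathway genes listed by name and, per list, the 2 largest rises and 2 largest falls past the threshold with knockdown in each treatment and with IFN-β in shControl. Some genes of this rule are not reported here. *Gm6166*, *Gm14328*, *Gm13783*, the markers and the highest-ranked receptors are named for what they bear on. Alternatives were DESeq2 1.42.0 and its size factors, library totals, no filter, only the groups compared, the runs of 4 library codes as a block, and leaving out each library.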

Additional observations from a re-analysis of the deposited data

Results flagged for a closer look

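The knockdown effect on *Fabp4* differed between unstimulated and IFN-β-treated cells by a test of the difference itself, with an interaction of 0.49 on the log2 scale (SE 0.09, adjusted p = 0.0254, edgeR). Knockdown gave -1.14 without IFN-β and -0.65 with it, and all 3 libraries of each sh*Ppargc1b* group were below all 3 of their control. The call was lost when any 1 of 8 of the 12 libraries was left out, with values of 0.415 to 0.566 and adjusted p of 0.0119 to 0.102 over the 12.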

How the results depend on the processing

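Of 890 values over the 10 genes, the 5 comparisons and their alternatives, 837 kept direction and side of the threshold, 18 fell short of it, 19 came past it and 16 changed sign. With library totals alone, the knockdown difference of *Nr1h2* with IFN-β gave 0.00089 on the log2 scale, and IFN-β in shControl gave -0.011 for *Nr1h2* and -0.054 for *Fabp5*, each of the opposite sign to the main value. With the same totals the unstimulated *Ppargc1b* level was 37.4 CPM in shControl and 20.8 CPM after knockdown, and 84 genes of the whole table, against 133, had an interaction past the threshold. Leaving out 1 library at a time gave -0.0026 to 0.139 for the knockdown difference of *Ppard* without IFN-β and -0.065 to 0.0078 for the knockdown difference of *Nr1h2* with IFN-β. For the interaction it gave -0.031 to 0.112 for *Ppard*, -0.011 to 0.090 for *Nr1h2*, -0.126 to 0.030 for *Abca1* and -0.056 to 0.083 for *Fabp5*, none past the threshold, and the number of the 10 genes with an interaction past it ran from 0 to 1. The cause of these shifts was not tested. The labels gave no replicate numbers to pair by, so the runs of 4 library codes were used as a block instead. This block moved no call of the 10 genes except *Abca1*, which passed with knockdown with IFN-β (adjusted p = 0.00395) and with IFN-β in shControl (0.0214).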
